A study of Ovis aries with 10 samples.

Results

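SENP6 gave 17 of the 8721 circular RNAs (circRNAs) that were listed in the 10 libraries of the study, and these 17 took 29990 of 445393 junction reads, or 6.73%. They are the rows of the deposited profile whose host gene name is exactly SENP6 and that had an entry in at least 1 library. The name stands on 18 rows, of which novel_circ_0008960 had no entry in these libraries. The gene was chosen because 1 of its circRNAs was very abundant in some libraries and not listed in others, so the levels of that circRNA and the libraries that list it are given as a description.

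Small-tailed Han sheep, a breed of China, were studied after removal of the ovaries (OR-STH, 5 libraries) or after a sham operation (STH, 5 libraries), to see how estrogen bears on muscle growth in females. All libraries are labelled longissimus dorsi, the long muscle of the back, and also primary myoblasts, the dividing precursors of muscle fibers. The labels describe a culture medium and a series of estradiol concentrations but give no library a concentration, an age or a time after surgery, so tissue and cultured cells cannot be told apart from them. Among hosts of circRNAs, 11 of 13 genes of adult muscle fibers were present with 17257 junction reads, of which TTN alone gave 12696. MYH1 and CKM were present with 2 reads each. Of the other lists for muscle, 0 of 4 myoblast and satellite cell genes and 0 of 6 proliferation genes hosted a circRNA. Of the markers of other cells, 3 of 4 endothelial genes (175 junction reads), 1 of 3 adipocyte genes (18 junction reads), 0 of 4 fibroblast genes and 0 of 3 immune genes did. A gene can be expressed without giving a circRNA, so these counts do not measure its level. Whether every library stands for a separate animal is not stated in the labels, and p-values therefore measure the spread between these samples, which may be technical.

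SENP6 encodes a protease that removes the small protein SUMO from other proteins and acts mainly on chains of SUMO. A circRNA arises when the spliceosome joins the end of an exon to the start of the same or an upstream exon, which closes the RNA into a ring. Rings have no free ends and resist the exonucleases that degrade linear RNA, and they are known to build up in cells that divide little, such as muscle fibers. A junction read is a read that crosses the closing junction, and it is the evidence for a ring. The deposited profile also gives non-junction reads, which the sources used here do not define. They were read here as the reads that touch a start or an end without crossing the closing junction.

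The libraries held 39045 to 67061 junction reads in OR-STH and 35731 to 49887 in STH. Where a library had no entry, the circRNA is described as not listed there and counted as 0 junction reads. The smallest listed count was 2 reads, so a circRNA that is not listed may still have been present at a lower level.

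The 17 circRNAs lay on chromosome 8, plus strand, between positions 2466872 and 2560912 of the files' coordinates, whose genome build is not given in the sources used here. They used 8 starts and 11 ends, and their blocks, the stretches that the files count as exons of a circRNA, came to 21 distinct stretches. Their spliced lengths ran from 93 to 627 bp and their genomic spans from 1385 to 33422 bp. In 11 of the 17 the blocks reached both ends of the circRNA. In the other 6, novel_circ_0008943, novel_circ_0008961, novel_circ_0008962, novel_circ_0008963, novel_circ_0008974 and novel_circ_0008975, the blocks missed an end, so the listed spliced length cannot be the whole ring.

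The most abundant, novel_circ_0008968, ran from 2532167 to 2535307, a span of 3141 bp. It held blocks of 171, 34, 195 and 227 bp, 627 bp in all, which was the longest spliced length among the 17. A shorter form, novel_circ_0008966, began at the same start and ended at 2534117, with the same first blocks of 171, 34 and 195 bp and without the block of 227 bp. Another circRNA with this start, novel_circ_0008970, ended at 2536972 and was listed with other blocks, of 91, 110 and 117 bp. The end of novel_circ_0008968 at 2535307 was shared by novel_circ_0008957, novel_circ_0008961 and novel_circ_0008973, which began at 2515029, 2519766 and 2533923.

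Further starts were shared as well. The start at 2466872, the most upstream one, served novel_circ_0008942, novel_circ_0008943 and novel_circ_0008944. The start at 2515029 served novel_circ_0008956, novel_circ_0008957 and novel_circ_0008958, and the start at 2533923 served novel_circ_0008973, novel_circ_0008974 and novel_circ_0008975. Blocks recurred between circRNAs as well. Novel_circ_0008957 joined a block of 149 bp to the block of 227 bp with which novel_circ_0008968 ends, and novel_circ_0008973 consisted of the last blocks of novel_circ_0008968, of 195 and 227 bp. Novel_circ_0008958 joined the same block of 149 bp to blocks of 110 and 117 bp, which were also the last blocks of novel_circ_0008970. CircRNAs that share a start, an end or a block share sequence and are not independent measurements of the gene.

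**Figure D1:**
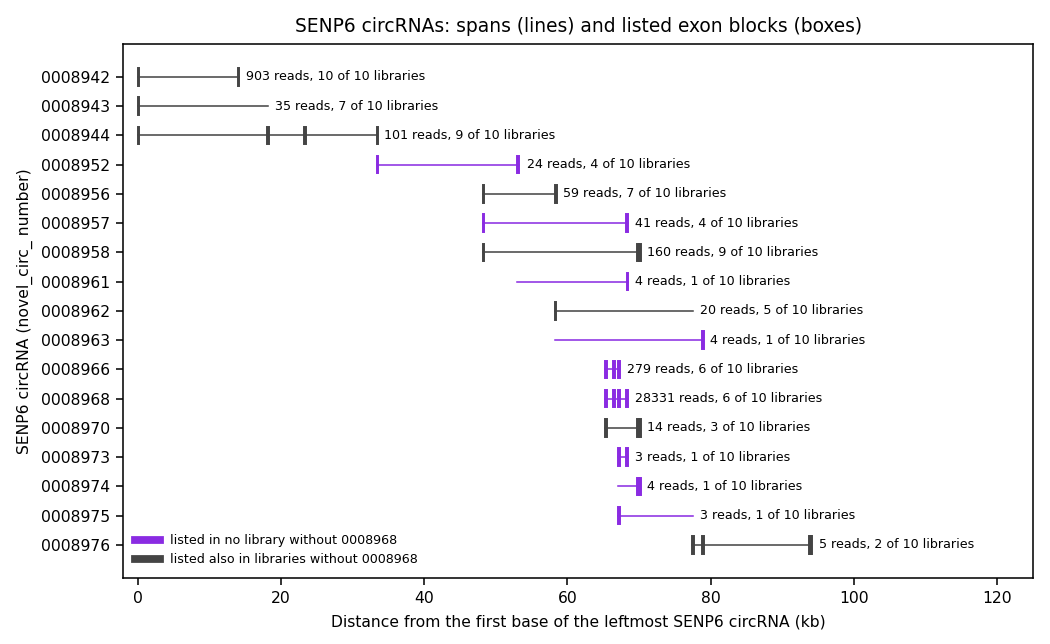
Map of the 17 SENP6 circRNAs by distance in kb from the first base of the leftmost one, each drawn as a line from start to end with boxes for its blocks (short blocks are widened so that they can be seen) and with its junction reads over all libraries. Purple marks the 9 circRNAs listed in no library that lacked novel_circ_0008968, and gray marks the others. The 9 include novel_circ_0008968 itself, by definition, and the others that end where it ends.

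Novel_circ_0008968 held 28331 of the 29990 SENP6 junction reads, or 94.5%, and the other 16 circRNAs together held 1659. In OR-STH it had 2001, 1800 and 1659 junction reads in replicates 1, 3 and 5 and was not listed in replicates 2 and 4. In STH it had 6172, 12107 and 4592 junction reads in replicates 1, 3 and 5 and was not listed in replicates 2 and 4. The libraries thus fell into 6 with 1659 to 12107 reads and 4 with no entry, 3 and 2 in each group, and in both groups the ones with no entry carried replicate numbers 2 and 4. The labels do not say what a replicate number marks.

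The gene as a whole followed this circRNA. SENP6 circRNAs took 5.10%, 0.312%, 5.00%, 0.296% and 2.83% of the junction reads of OR-STH replicates 1 to 5, against 17.3%, 0.199%, 24.9%, 0.200% and 10.5% in STH replicates 1 to 5. The share was highest in STH replicate 3 and lowest in the libraries numbered 2 and 4 of both groups. The 4 libraries that did not list novel_circ_0008968 still held 127 and 139 SENP6 junction reads in OR-STH and 71 and 83 in STH, from other circRNAs of the gene.

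The shorter form novel_circ_0008966 was listed in the same 6 libraries. It had 15, 16 and 9 junction reads in OR-STH replicates 1, 3 and 5, against 39, 130 and 70 in STH replicates 1, 3 and 5. Relative to the junction reads of novel_circ_0008968 in the same library this was 0.750%, 0.889% and 0.542% in OR-STH replicates 1, 3 and 5, against 0.632%, 1.07% and 1.52% in STH replicates 1, 3 and 5. The shorter form thus stayed a small fraction of the longer one in each of the 6 libraries, and the groups overlapped in this share.

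Novel_circ_0008942, at the upstream end of the set, was the only SENP6 circRNA listed in all 10 libraries. It joined blocks of 94 and 143 bp and ended 51186 bp before the start of novel_circ_0008968. It had 50, 76, 73, 113 and 180 junction reads in OR-STH replicates 1 to 5, against 105, 34, 104, 57 and 111 in STH replicates 1 to 5. Its junction reads overlapped between the groups, and also between the libraries that listed novel_circ_0008968 and those that did not. Among SENP6 junction reads other than those of novel_circ_0008968, it held 45.0% to 81.3% in OR-STH and 34.0% to 68.7% in STH.

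Novel_circ_0008958, which spans the whole of novel_circ_0008968 but carries none of its blocks, was listed in 9 libraries. It had 31, 24, 18, 10 and 10 junction reads in OR-STH replicates 1 to 5, against 21, 19, 15 and 12 in STH replicates 1, 2, 4 and 5. It was not listed in STH replicate 3, the library with the most reads of novel_circ_0008968. Novel_circ_0008957 began at the same start but ended at the end of novel_circ_0008968, and it kept to libraries that listed that circRNA, with 4 junction reads in OR-STH replicate 5, against 8, 22 and 7 in STH replicates 1, 3 and 5.

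The remaining circRNAs had at most 23 junction reads in a library. Novel_circ_0008944 was listed in 9 libraries with 3 to 23 reads, and novel_circ_0008943 and novel_circ_0008956 in 7 each. Novel_circ_0008962 was listed in 5 libraries, novel_circ_0008952 in 4, novel_circ_0008970 in 3 and novel_circ_0008976 in 2. Another 5 were listed in a single library with 3 or 4 reads each, namely novel_circ_0008961, novel_circ_0008963, novel_circ_0008973, novel_circ_0008974 and novel_circ_0008975. In all, 9 of the 17, novel_circ_0008968 itself among them, were listed in no library that lacked an entry for novel_circ_0008968, beside 27.3% of all 8721 circRNAs. Of the 12 listed in 2 or more libraries, 4 kept to these libraries, namely novel_circ_0008952, novel_circ_0008957, novel_circ_0008966 and novel_circ_0008968, beside 9.48% of all circRNAs so listed. Novel_circ_0008968 meets both conditions by definition, since it sets the split of the libraries. Novel_circ_0008957 shares its end and novel_circ_0008966 its start, so these counts are a description. Libraries listed 7, 6, 11, 4 and 8 SENP6 circRNAs in OR-STH replicates 1 to 5, against 10, 6, 11, 5 and 9 in STH replicates 1 to 5.

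**Figure D2:**
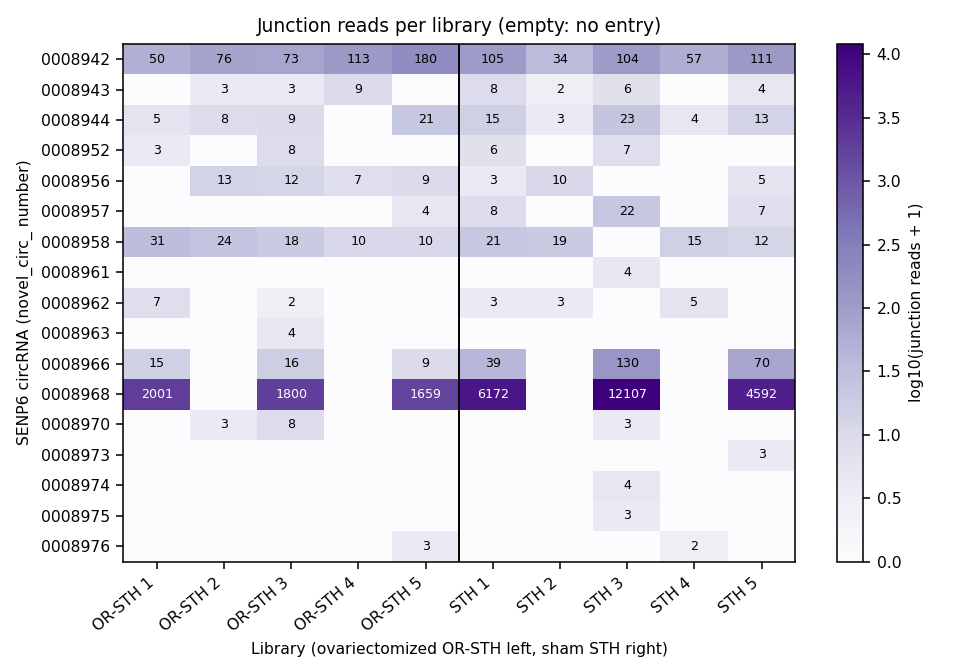
Junction reads of each SENP6 circRNA (rows) in each library (columns, OR-STH left of STH), with color on a log scale and empty cells where a library had no entry. Novel_circ_0008968 reached 12107 reads in STH replicate 3 and is empty in replicates 2 and 4 of both groups, while novel_circ_0008942 was listed in all 10 libraries.

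Non-junction reads are a second readout of the same positions, given only where a library listed the circRNA. Which values exist thus depends on the junction reads, by which the gene was chosen. Novel_circ_0008942 had 198, 101, 217, 116 and 230 non-junction reads in OR-STH replicates 1 to 5, against 446, 94, 813, 86 and 478 in STH replicates 1 to 5. The 6 libraries that listed novel_circ_0008968 thus had 198 to 813 non-junction reads at this distant circRNA, and the other 4 had 86 to 116, with no overlap. After division by the library factor for non-junction reads, the ranges were 191 to 752 and 84.9 to 105. Such a separation was found in 3 of the 806 circRNAs listed in all 10 libraries (0.372%), the others being novel_circ_0008136 of TTBK2, which encodes a kinase of tau and tubulin, and novel_circ_0000024 of ZMYM1, which encodes a zinc finger protein.

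Of the 17 circRNAs, 8 had non-junction values in both kinds of library. In 6 of these 8, novel_circ_0008942, novel_circ_0008943, novel_circ_0008944, novel_circ_0008956, novel_circ_0008962 and novel_circ_0008970, every value in libraries that listed novel_circ_0008968 was above every value in those that did not. Over all circRNAs with values in both kinds of library this held for 12.2%, on non-junction reads as deposited, without scaling. Some of the 6 rest on few values, such as novel_circ_0008970 with 2 against 1 and novel_circ_0008962 with 3 against 2. Of the 5 SENP6 circRNAs with at least 4 values of the first kind and 3 of the second, 4 separated in this way. Among all 1683 such circRNAs 8 did (0.475%), also without scaling, and these 8 include the 4 of SENP6. Of the 4, novel_circ_0008942, novel_circ_0008943 and novel_circ_0008944 share a start. Novel_circ_0008944, for example, had 351 to 1688 non-junction reads in the first kind and 171 to 209 in the second. Novel_circ_0008958 overlapped, with 244 to 953 against 235 to 286. Novel_circ_0008976, the most downstream, had 1 value of each kind, 132 in OR-STH replicate 5 and 287 in STH replicate 4, which is the other order. The 8 share start and end sites, so they do not count as 8 separate observations.

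**Figure D3:**
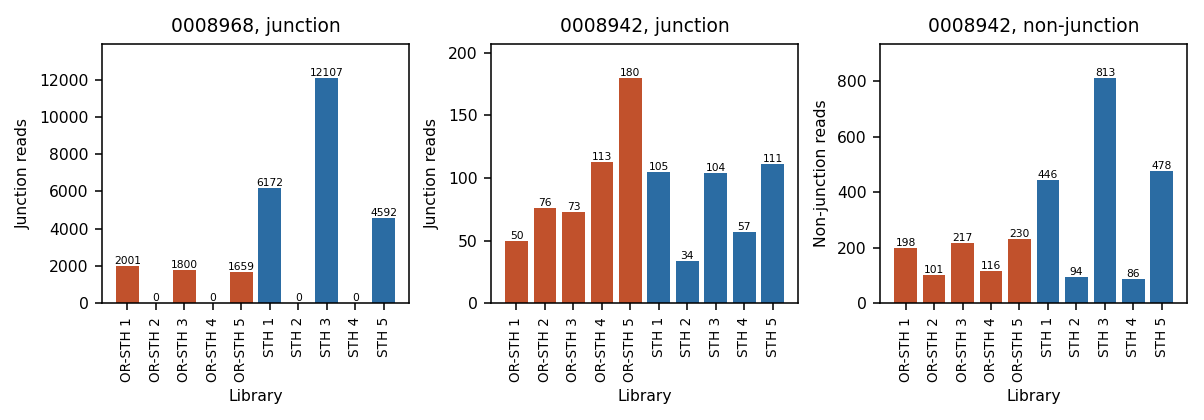
Junction reads of novel_circ_0008968 (left), junction reads of novel_circ_0008942 (middle) and non-junction reads of novel_circ_0008942 (right), with 1 bar per library, OR-STH left of STH, where 0 marks a library without an entry. The libraries with an entry for novel_circ_0008968 had 198 to 813 non-junction reads at novel_circ_0008942, and those without had 86 to 116.

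In each library that listed novel_circ_0008968, SENP6 circRNAs with a start or end at or inside it had more non-junction reads than the others. That circRNA itself had 1547, 1482 and 1013 non-junction reads in OR-STH replicates 1, 3 and 5, against 3818, 8112 and 3125 in STH replicates 1, 3 and 5. This was 0.611 to 0.823 non-junction reads per junction read, or 0.674 over all reads. Of the 131 circRNAs with at least 500 junction reads, whose median was 1.93, it had the 19th lowest value, and the most abundant circRNA of UBE3A, a ubiquitin ligase gene, had 0.386. The ratio was 0.736 ± 0.111 in OR-STH and 0.656 ± 0.0331 in STH (SD, n = 3 each), and an exact permutation test gave p = 0.4, where 0.1 is the smallest p that 3 against 3 allows.

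The shorter form had more non-junction reads than the longer one in each of the 6 libraries. Novel_circ_0008966 had 3251, 3121 and 2666 non-junction reads in OR-STH replicates 1, 3 and 5, against 9132, 17350 and 7531 in STH replicates 1, 3 and 5. These were 1639 to 9238 more than the non-junction reads of novel_circ_0008968 in the same library. The surplus equalled 0.763 to 0.996 times the junction reads of novel_circ_0008968, with a median of 0.886. Both circRNAs have the same start, so they differ in their end alone, and the end of the shorter one lies inside the longer one.

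CircRNAs with few junction reads also had many non-junction reads at these sites. In STH replicate 3, novel_circ_0008974 and novel_circ_0008975, which start at a block inside novel_circ_0008968, had 4 and 3 junction reads but 12272 and 11328 non-junction reads. In the same library novel_circ_0008957 and novel_circ_0008961, which end where novel_circ_0008968 ends, had 4355 and 4584 non-junction reads, and the 4 that have no site in common with it, novel_circ_0008942, novel_circ_0008943, novel_circ_0008944 and novel_circ_0008952, had 813, 1253, 1688 and 2213. In this library circRNAs with a site inside novel_circ_0008968 thus had more non-junction reads than those that share its end, and these more than the 4 with no common site. Novel_circ_0008957 had 665 non-junction reads in OR-STH replicate 5, against 2060, 4355 and 1787 in STH replicates 1, 3 and 5.

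Over all hosts, the non-junction reads of a circRNA were close to a sum of 1 value for its start and 1 for its end. Among 121 sets of 4 circRNAs that combine 2 starts with 2 ends in 1 library, 92.6% met this sum within 5%, and the median ratio was 1.00. The sets can share circRNAs, and no other rule was compared with the sum. No library listed such a set of SENP6 circRNAs, so the sum was not checked in this gene. Within SENP6, circRNAs with a common end can be set side by side. In OR-STH replicate 2, which did not list novel_circ_0008968, novel_circ_0008970 had 325 non-junction reads and novel_circ_0008958 had 263. In OR-STH replicate 3, which did, they had 1091 and 439, and of the pair it is novel_circ_0008970 that starts where novel_circ_0008968 starts.

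**Figure D4:**
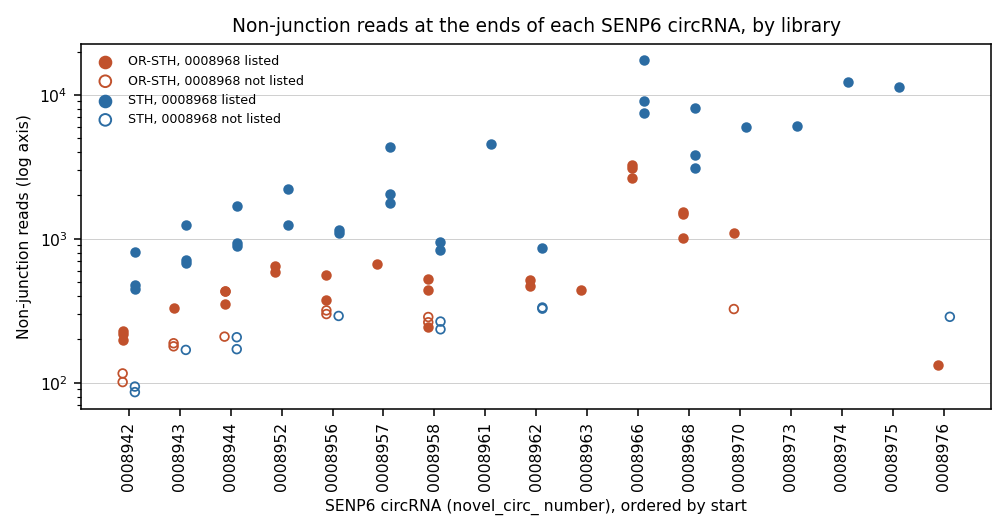
Non-junction reads of each SENP6 circRNA on a log axis, with 1 point per library that lists it, OR-STH left of STH, filled where the library lists novel_circ_0008968 and open where it does not. In 6 of the 8 circRNAs with both kinds of point the libraries with an entry lay higher with no overlap, novel_circ_0008958 overlapped, and novel_circ_0008976 had the other order.

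The study's comparison is OR-STH against STH. No SENP6 circRNA passed the test between these groups in a fit with group as the only term. In limma voom with Benjamini-Hochberg adjustment, 0 of the 744 circRNAs tested (0%) passed an adjusted p of 0.05, and the smallest adjusted p was 0.143. Without adjustment, 38 (5.11%) had a p under 0.05. Of the 17 SENP6 circRNAs, 4 passed the filter on low counts. Of these 4, 0 were under 0.05 without adjustment, and 2 were lower in OR-STH, against 48.3% of all circRNAs tested. Their median log2 fold change was -0.60, beside 0.03 over all tested.

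Normalized junction reads of novel_circ_0008968 averaged 1008 ± 992 in OR-STH and 5049 ± 5438 in STH (SD, n = 5 each). The log2 fold change was -1.24 ± 4.52 (standard error), with an adjusted p of 0.976 in limma voom. Such a fitted value depends on how the 4 libraries with no entry enter the fit, and leaving out single libraries moved it from -3.46 to 0.55. In the authors' deposited table, whose log2 fold change is STH over OR-STH, it was 2.34 with p = 0.410 and an adjusted p of 0.966. The authors' deposited table gave no SENP6 circRNA a p under 0.05, the smallest being 0.0839 for novel_circ_0008957. The share of all its circRNAs with a p under 0.05 was not computed here. Of all circRNAs in that table, 1 had an adjusted p under 0.05, and it was not of SENP6.

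Novel_circ_0008966 had 7.63 ± 8.15 normalized junction reads in OR-STH and 51.8 ± 57.4 in STH, with a log2 fold change of -1.41 ± 3.44 and an adjusted p of 0.963 in limma voom. Novel_circ_0008942 had 85.5 ± 25.6 in OR-STH and 90.0 ± 40.4 in STH, with a log2 fold change of 0.05 ± 0.34 and an adjusted p of 0.976 in limma voom. Novel_circ_0008958 had 18.3 ± 10.6 in OR-STH and 14.9 ± 9.85 in STH, with a log2 fold change of 0.81 ± 0.92 and an adjusted p of 0.887 in limma voom. Of the 4, novel_circ_0008942 alone was measured with an error below the median standard error of all circRNAs tested, 0.42. Two-sided exact permutation tests of the 17 circRNAs, 1 test each, gave p from 0.167 to 1, and the groups overlapped in all 17. A circRNA that lacks an entry in some library of each group overlaps by construction. This holds for all of the 17 but novel_circ_0008942, novel_circ_0008944 and novel_circ_0008958. Of the 744 circRNAs tested, 1.48% had groups that did not overlap, a share to be set beside the 4 tested SENP6 circRNAs alone.

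The sum over SENP6 circRNAs was 1145 ± 996 normalized junction reads in OR-STH and 5244 ± 5545 in STH, with a log2 fold change of -1.002 ± 1.91 and an adjusted p of 0.914 in limma voom over 757 hosts. Without STH replicate 3 that log2 fold change was -0.16, and without STH replicate 2 it was -2.03. Of these hosts, 0 passed the adjusted threshold (0%) and 44 had an unadjusted p under 0.05 (5.81%). Without novel_circ_0008968 the sum was 137.5 ± 19.3 in OR-STH and 195.3 ± 110.0 in STH, with a log2 fold change of -0.27 ± 0.38 and an adjusted p of 0.884, and without STH replicate 3 it was -0.03. In a bulk sample, fewer cells of a type and less RNA per cell cannot be told apart in any of these values.

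Measures of whole libraries overlapped between the groups too, and 4 were tested. The SENP6 share of junction reads was 2.71% ± 2.37 in OR-STH and 10.6% ± 10.8 in STH (SD, n = 5 each; exact permutation p = 0.175). Summed SENP6 non-junction reads were 4590 ± 3825 in OR-STH and 25283 ± 29728 in STH after scaling to library size (exact permutation p = 0.135). The highest was STH replicate 3, and the lowest was OR-STH replicate 4. This sum depends on which circRNAs a library lists, since a circRNA without an entry has no non-junction value there. It also counts a site shared by several circRNAs more than once. In STH replicate 3, novel_circ_0008974, novel_circ_0008975 and novel_circ_0008961 entered with 12272, 11328 and 4584 unscaled non-junction reads, on 4, 3 and 4 junction reads. Scaled non-junction reads of novel_circ_0008942 were 158.6 ± 56.4 in OR-STH and 419.9 ± 327.9 in STH (exact permutation p = 0.167). The number of SENP6 circRNAs listed was 7.2 ± 2.59 in OR-STH and 8.2 ± 2.59 in STH (exact permutation p = 0.627). Without STH replicate 3 the OR-STH minus STH difference in the share moved to -4.32 percentage points, against -7.89 with it, that in summed non-junction reads to -8496, against -20692, and that in non-junction reads of novel_circ_0008942 to -151, against -261. Adjusted over these 4 tests, the exact permutation p-values were 0.233, 0.233, 0.233 and 0.627.

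Among the 6 libraries that listed novel_circ_0008968 the groups separated in some SENP6 measures, in a comparison added after the values had been seen. Of the 4 tested SENP6 circRNAs, 2 lay lower in every OR-STH library than in every STH library, beside 4.30% of the 744 circRNAs tested, and 9.01% of the 744 separated in either direction. Novel_circ_0008968 had 1680 ± 526 normalized junction reads in these OR-STH libraries and 8415 ± 4082 in these STH libraries (SD, n = 3 each). Its highest OR-STH value was 2064 and its lowest STH value 4770.2. Novel_circ_0008966 had 12.7 ± 5.98 in these OR-STH libraries and 86.3 ± 46.2 in these STH libraries. The sum of the other 16 SENP6 circRNAs was 143.1 ± 25.0 in these OR-STH libraries and 271.9 ± 46.8 in these STH libraries. Scaled non-junction reads of novel_circ_0008942 were 194.1 ± 40.2 in these OR-STH libraries and 636.8 ± 196.4 in these STH libraries. With the library factor for non-junction reads instead, they were 191, 240 and 248 in OR-STH replicates 1, 3 and 5, against 442, 752 and 513 in STH replicates 1, 3 and 5. On that scale 11.2% of the 806 circRNAs listed in all libraries lay lower in every one of these OR-STH libraries. In each of these 4 measures the exact permutation p was 0.1, the smallest that 3 libraries against 3 allow, so no such difference can pass 0.05. Other measures overlapped in the same 6 libraries. Novel_circ_0008942 had 51.6, 76.8 and 117 normalized junction reads in OR-STH replicates 1, 3 and 5, against 130, 110.2 and 115 in STH replicates 1, 3 and 5. Novel_circ_0008958 had 32.0, 18.9 and 6.51 in these OR-STH libraries, against 26.0, 0 and 12.5 in these STH libraries. The number of SENP6 circRNAs listed ran from 7 to 11 in these OR-STH libraries and from 9 to 11 in these STH libraries (exact permutation p = 0.5). The libraries were chosen by the level of novel_circ_0008968 itself. The values, shares and p-values given for them are thus a description and no evidence of a difference between the groups.

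The remaining 4 libraries gave the other order for the sum of the 16 circRNAs. It was 131 and 127 normalized junction reads in OR-STH replicates 2 and 4, against 78.2 and 82.6 in STH replicates 2 and 4. With 2 libraries a group no test was made.

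**Figure D5:**
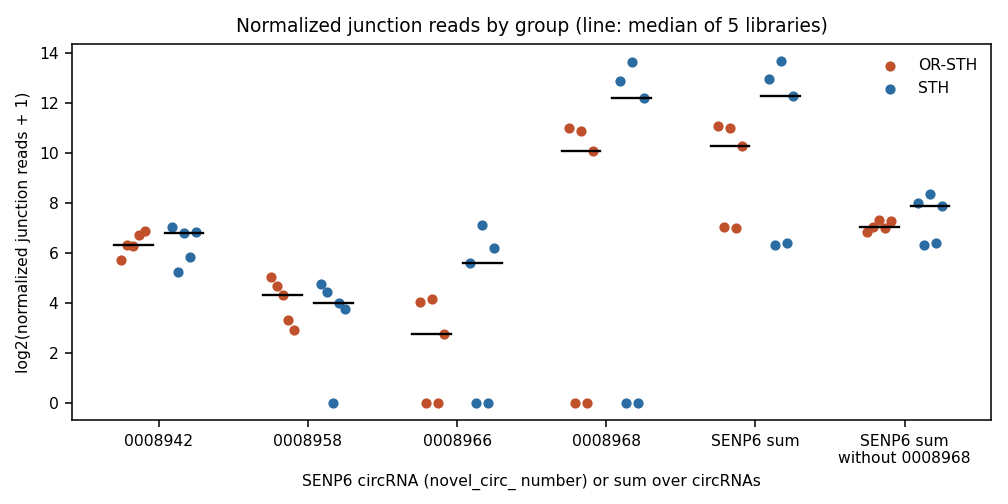
Normalized junction reads as log2(reads + 1) for the 4 SENP6 circRNAs that were tested and for the SENP6 sum with and without novel_circ_0008968, with 1 point per library, OR-STH left of STH, and a line at the median of 5 libraries. The groups overlap in each panel position, and 2 libraries of each group sit at 0 for novel_circ_0008966 and novel_circ_0008968.

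The protein-coding genes beside SENP6 in the sheep gene table gave few circRNAs. FILIP1, which encodes a filamin-binding protein, and IMPG1, which encodes a proteoglycan of the retina, hosted none. MYO6, which encodes an unconventional myosin, hosted 1 circRNA with 51 junction reads, at 7, 11, 14 and 8 reads in OR-STH replicates 1, 2, 4 and 5, against 7 and 4 in STH replicates 1 and 3. Of its 6 libraries, OR-STH replicates 1 and 5 and STH replicates 1 and 3 also listed novel_circ_0008968, and OR-STH replicates 2 and 4 did not.

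SENP6 acts in the SUMO pathway, in which an activating enzyme, a conjugating enzyme and ligases attach SUMO and proteases of the SENP family remove it. Of 28 genes of this pathway, a list that leaves out SENP6, 11 hosted a circRNA in these libraries, with 32 circRNAs and 1958 junction reads in all. As hosts, 6 could be tested. None passed in limma voom, 0 of 6 were under 0.05 without adjustment (background 5.81%), and 2 of 6 were lower in OR-STH (background 47.7%). SAE1, a subunit of the activating enzyme, had a log2 fold change of 0.40 ± 0.53. The ligases PIAS1, PIAS2 and ZNF451 had log2 fold changes of 0.21 ± 0.31, -0.09 ± 0.45 and 0.01 ± 0.42. SENP7, the protease most like SENP6, had 0.10 ± 0.29, and RNF4, a ubiquitin ligase that recognizes SUMO chains, had -0.13 ± 0.32. Their median was 0.06, beside 0.02 over all hosts tested.

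Other circRNAs were ranked by how closely their levels followed novel_circ_0008968 over the 10 libraries, by Pearson correlation of log2(normalized junction reads + 1) among 740 circRNAs of other hosts. The 5 most alike were circRNAs of GFM2, a mitochondrial translation factor (r = 0.87), TTN, the sarcomeric spring (novel_circ_0002370, r = 0.83), SBF2, a phosphatase-like protein (r = 0.80), JMJD1C, a chromatin protein (r = 0.76), and NUP35, a nuclear pore protein (r = 0.73). These values describe 10 libraries that fall into 6 and 4, and carry no test. Within SENP6, r was 0.96 for novel_circ_0008966, 0.53 for novel_circ_0008942 and -0.30 for novel_circ_0008958. Besides novel_circ_0008966, a circRNA of ADGRE5, an adhesion receptor of leukocytes, and one of HIPK3, a kinase, were listed in exactly the 6 libraries of novel_circ_0008968. Novel_circ_0007143 of ADGRE5 had 5, 13 and 25 junction reads in OR-STH replicates 1, 3 and 5, against 4, 8 and 10 in STH replicates 1, 3 and 5. Novel_circ_0012916 of HIPK3 had 9, 3 and 8 in OR-STH replicates 1, 3 and 5, against 3, 2 and 2 in STH replicates 1, 3 and 5.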

How the data were processed

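Junction reads were analysed in 10 libraries, 5 OR-STH and 5 STH. Per the labels' protocols the library kit keeps the strand, and HISAT2 is named, per the submitters' processing notes. Caller, genome build and annotation: not given in the sources used here. The deposited profile packs whole-number junction and non-junction counts into lists with sample names, and 10 sample names in the lists that match no sample of the series were not used. In the other deposited table, per the file headers, the authors give a mean normalized read signal per group, a log2 fold change of STH over OR-STH, and a raw and an adjusted p-value. Recomputed from the counts with median-of-ratios factors, the authors' mean signal was matched to within 3.2e-07.

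Counts were unpacked and scaled by trimmed mean of M values (30% of ratios and 5% of abundances trimmed). A circRNA was tested with at least 10 scaled reads in 5 libraries and 15 in total, in limma 3.58.1 voom (R 4.3.3, statmod 1.5.0) with robust empirical Bayes, group as the only term and Benjamini-Hochberg adjustment at 0.05. Non-junction reads were divided by the same library factors, or, where stated, by median-of-ratios factors over the 806 circRNAs listed in all libraries. Single values were compared by two-sided exact permutation over 252 assignments, whose smallest p is 0.00794. Functions were tested on simulated counts with a single spread for all circRNAs. These did not model a circRNA absent from some libraries and abundant in others, so they do not cover the fit of novel_circ_0008968. Chromosome 8 is that of SENP6 in the ARS-UI_Ramb_v3.0 gene table, and file starts were counted from 1. Sequences were not used here. Named were all SENP6 circRNAs, the 5 circRNAs most like novel_circ_0008968, its neighbours and a SUMO pathway list. The members, lists and rules were chosen with earlier results of these data known.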

Additional observations from a re-analysis of the deposited data

Results flagged for a closer look

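Within groups of 5 libraries, 9 of 37 checks found a library whose normalized junction reads stood apart from the other 4. Chance gives about 1 in 20. In all 9 the circRNA was listed in 1 library of the group and the others stood at 0, so the value stands apart by construction. In OR-STH these were novel_circ_0008963 in replicate 3 with 4.21, and novel_circ_0008957 and novel_circ_0008976 in replicate 5 with 2.61 and 1.95. In STH replicate 3 novel_circ_0008961 and novel_circ_0008974 had 4.24 each, and novel_circ_0008970 and novel_circ_0008975 had 3.18 each. In STH replicate 4 novel_circ_0008976 had 1.99, and in STH replicate 5 novel_circ_0008973 had 3.12. STH replicate 3, with the most SENP6 junction reads, held 4 of the 9.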

How the results depend on the processing

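The 0 circRNAs past the threshold became 4 with a filter of 2 reads in 5 libraries, 30 with no filter and 3 with a replicate block, and stayed 0 in limma trend, under the other scalings and without each library in turn. SENP6 circRNAs past it were 0 under every setting except the replicate block, which gave 2. These were novel_circ_0008966 at -2.73 (limma voom adjusted p = 0.000914) and novel_circ_0008968 at -2.26 (limma voom adjusted p = 5.7e-08). Both have no entry in numbers 2 and 4 of either group, so the block takes up the split by which the gene was chosen. The standard error of novel_circ_0008968 was 4.52 without the block and 0.168 with it. These 2 adjusted p-values therefore cannot be taken at face value. With the block, novel_circ_0008942 changed sign to -0.012. Same-numbered libraries correlated at 0.04, 0.20, 0.06, 0.10 and -0.10 in their deviations from the group means, and only numbers 2 and 4 were each closest to their own number. Not all of the 5 correlations were over 0.1, and the labels do not say what a number marks. The numbers were therefore not taken to pair the libraries, but whether they do is not known. In exact tests under the block, p was 0.25 for the SENP6 share, 0.0625 (the smallest possible) for summed non-junction reads, 0.25 for non-junction reads of novel_circ_0008942 and 0.25 for the number listed.

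Without single libraries, log2 fold changes ran from -0.21 to 0.21 for novel_circ_0008942, from -3.46 to 0.55 for novel_circ_0008968 and from -0.29 (without STH replicate 3) to 1.24 for novel_circ_0008958. The difference in summed non-junction reads ran from -26736 to -8496, with exact permutation p = 0.0397 without STH replicate 2 and 0.0317 without STH replicate 4. Normalized reads of novel_circ_0008966 gave an exact permutation p of 0.0476 without either of these. The cause was not tested. Library totals moved the median log2 fold change of all circRNAs tested to 0.14. For non-junction reads of novel_circ_0008942, the OR-STH minus STH difference was -261 with the library factors from junction reads. It was -199 with factors from non-junction reads (exact permutation p = 0.175) and -185 with library totals of non-junction reads (exact permutation p = 0.214). Low counts kept all but 4 of the 17 circRNAs out of the fit, and the fits of novel_circ_0008968 and novel_circ_0008966 each include 4 libraries with no entry.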
